A study of Homo sapiens with 72 samples.

Results

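Untreated Raji cells, an established Burkitt lymphoma line, were profiled by Cut&Tag for dimethylated (H3K4me2) and trimethylated (H3K4me3) lysine 4 of histone H3, with 3 libraries of each mark. These 6 of the 72 samples of the series were all untreated, carried no engineered change named in the labels, and are set apart in the labels by the antibody. In Cut&Tag an antibody directs a transposase to the mark, and the DNA around it is amplified and sequenced. Peaks were called by the authors in each library, and the peaks of the 6 libraries on chromosomes 1 to 22, X and Y that overlapped by at least 1 bp were merged here into 18039 places. A place was called for both marks when 3 of 3 libraries of each had a peak there, which held for 7955 places. It was called for H3K4me2 only when all 3 H3K4me2 libraries and no H3K4me3 library had a peak (1015 places), and for H3K4me3 only in the opposite case (116 places). The other 8953 places were mixed. For comparison, 3 libraries per mark of untreated REH cells, a precursor B cell leukemia line, and of Raji cells kept overnight with 1 nM bryostatin were used, and 3 H3K27me3 libraries of untreated Raji. The labels do not say whether the 3 libraries of a mark came from separate cultures, so p-values measure only the spread between libraries.

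Methyl groups are added to this lysine stepwise, by complexes of the SETD1 and KMT2 families, and are removed by KDM1 and KDM5 demethylases. Trimethylation is known as the mark of active or poised gene starts, where CpG islands recruit its writers. Dimethylation is found at starts too, often on their flanks, and at enhancers, so the balance of the marks separates kinds of regulatory DNA.

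Depth differed with the mark. The number of mapped reads, computed from the smallest step between signal values, was 6.70 to 13.9 M in the H3K4me2 libraries and 20.1 to 47.9 M in the H3K4me3 libraries, with no overlap. Every H3K4me3 library was thus deeper than every H3K4me2 library, and a difference in presence due to depth and one due to the mark cannot be told apart. Replicate 1 of both marks had shorter peaks than the other replicates, and replicate 1 of H3K4me2 had the most peaks (19641). Over the places called for both marks, the log2 total signal of 2 libraries correlated with r of 0.91 to 0.93 within H3K4me2, 0.96 to 0.99 within H3K4me3 and 0.37 to 0.49 between the marks. These correlations run across places, which are not independent replicates. B cell identity was checked at gene starts: all 24 B lineage transcription factor genes and all 26 genes of the B cell receptor and surface antigens had an H3K4me2 peak in at least 1 library within 1 kb of a start, as did 3 of 20 T and natural killer cell markers and 3 of 17 myeloid and erythroid markers. Over all 20033 protein-coding genes, 43.0% had no place of either mark there.

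The windows below show the sequence under the strongest called stretch of named places, 200 bases each on the plus strand of hg38, with every CpG dinucleotide in capitals. They were chosen with their signal and the CpG content of the classes known, to show the sequence at each end, and they overlap no annotated exon. The first 3 come from places called for H3K4me2 only, or, for COL9A2, from the start with the largest balance toward H3K4me2.
Within PPM1L, chr3:160885786-160885985: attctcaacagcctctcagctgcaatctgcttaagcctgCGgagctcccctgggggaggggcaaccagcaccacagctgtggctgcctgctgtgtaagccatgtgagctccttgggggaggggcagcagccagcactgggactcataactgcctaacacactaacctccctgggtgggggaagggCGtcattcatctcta
DUSP10, chr1:221713186-221713385: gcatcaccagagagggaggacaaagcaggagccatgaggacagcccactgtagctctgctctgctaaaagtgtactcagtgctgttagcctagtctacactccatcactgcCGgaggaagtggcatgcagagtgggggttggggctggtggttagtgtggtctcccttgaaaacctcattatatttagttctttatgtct
COL9A2, chr1:40313656-40313855: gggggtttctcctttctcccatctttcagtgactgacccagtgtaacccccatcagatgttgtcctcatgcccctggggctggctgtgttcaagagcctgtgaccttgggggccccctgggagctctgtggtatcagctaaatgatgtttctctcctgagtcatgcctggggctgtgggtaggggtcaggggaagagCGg
These windows held 2, 1 and 1 CpG, and all 3 lay in an intron of the named gene. The next 3 come from places called for H3K4me3 only (PSPC1, ZNF675) and from the start with the largest balance toward H3K4me3 (THAP4).
PSPC1, chr13:19782016-19782215: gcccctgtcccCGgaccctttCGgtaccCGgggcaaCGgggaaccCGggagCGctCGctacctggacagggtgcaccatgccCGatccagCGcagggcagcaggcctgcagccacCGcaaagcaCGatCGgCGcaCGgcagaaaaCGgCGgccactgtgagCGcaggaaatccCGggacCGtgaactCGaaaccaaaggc
ZNF675, chr19:23686706-23686905: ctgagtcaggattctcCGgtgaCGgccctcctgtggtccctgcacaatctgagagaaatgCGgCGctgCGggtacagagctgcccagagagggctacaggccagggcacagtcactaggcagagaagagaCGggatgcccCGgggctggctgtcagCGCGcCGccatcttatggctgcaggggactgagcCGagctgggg
THAP4, chr2:241636336-241636535: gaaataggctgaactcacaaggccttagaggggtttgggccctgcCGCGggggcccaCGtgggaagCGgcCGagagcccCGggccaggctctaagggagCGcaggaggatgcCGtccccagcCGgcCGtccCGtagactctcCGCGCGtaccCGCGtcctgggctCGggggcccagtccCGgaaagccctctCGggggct
They held 20, 11 and 19 CpG, also within introns. The ratio of observed to expected CpG was 0.0601 to 0.113 in the first 3 windows and 0.531 to 0.867 in the last 3. This gap describes windows picked from the ends and says nothing of the classes, whose windows overlapped in CpG content.

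The places called for both marks lay mostly at gene starts. A start within 1 kb, taken from all transcripts of protein-coding and lncRNA genes in GENCODE 44, was found for 96.9% of them and 1.48% lay beyond 10 kb of any start. Places called for H3K4me2 only were spread differently: 32.2% lay within 1 kb, 34.2% between 1 and 10 kb and 33.6% beyond 10 kb. Of the places called for H3K4me3 only, 94.0% lay within 1 kb. These are descriptions with no test, since places are not replicates. The sizes of the single-mark classes changed with the peaks and libraries used. Without H3K4me2 replicate 2, the library with the fewest H3K4me2 peaks, 3442 places were called for H3K4me2 only, and without H3K4me2 replicate 1 350 places were called for H3K4me3 only. Both settings also require fewer libraries of H3K4me2 for a call. With the 9962 peaks of highest total signal from each library, 967 places had H3K4me2 only and 1205 had H3K4me3 only, so that the larger class changed. In the upper 0.5 of each library's peaks by total signal, 1230 places had H3K4me2 only and 247 had H3K4me3 only, and 74.1% of the H3K4me2-only places lay within 1 kb of a start.

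The same contrast was seen peak by peak. Within 1 kb of a start lay 62.6%, 83.3% and 72.9% of the H3K4me2 peaks in replicates 1, 2 and 3, and 85.0%, 95.2% and 96.0% of the H3K4me3 peaks. All H3K4me3 libraries were above all H3K4me2 libraries. The means were 72.9% ± 10.4 and 92.1% ± 6.14 (SD, n = 3 each), with a two-sided exact permutation p of 0.1, the smallest that 3 against 3 libraries can give. Beyond 10 kb lay 16.7%, 6.61% and 13.5% of the H3K4me2 peaks and 5.02%, 2.41% and 1.95% of the H3K4me3 peaks, again with no overlap (exact permutation p = 0.1).

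Sequence composition, which the classes did not use, differed between them, with overlap. In the 300 bases around the strongest stretch, the median ratio of observed to expected CpG was 0.819 in places with both marks, 0.722 with H3K4me3 only and 0.231 with H3K4me2 only, against 0.621 over all places. A ratio above 0.6 was found in 82.8%, 71.6% and 9.26% of the windows. H3K4me2-only places within 1 kb of a start were also low, at 0.281, where the places of both marks within 1 kb had 0.823. Beyond 1 kb these medians were 0.218 and 0.656.

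Fixed motif strings were searched on both strands of the same windows. The string GAGGAAGT, bound by PU.1, an ETS factor of B and myeloid cells, was in 8.18% of H3K4me2-only windows, 2.46% of windows with both marks and 4.21% of all windows. The octamer ATGCAAAT, bound by the POU factors that drive immunoglobulin genes, was in 6.80%, 0.779% and 2.77%. The E2A string CAGCTG was in 29.3%, 17.1% and 20.4%. The EBF1 string TCCCNNGGG was in 15.7%, 12.02% and 11.3%. Strings with CpG went the other way: CCGGAAGT, bound by ubiquitous ETS factors, was in 0.985% of H3K4me2-only windows and 6.22% of windows with both marks (all windows 4.07%), and GCATGCGC, bound by NRF1, was in 0.690% and 4.97% (3.18%). The CCAAT string of NFY was in 21.5% and 26.0% (25.9%). Median GC was 56.7% in H3K4me2-only windows, 68.7% in windows with both marks and 61.7% in all windows, and the shares were not adjusted for it. In places with H3K4me2 in 1 library and no H3K4me3, the PU.1 string was in 7.20% of windows and the octamer in 4.63%. The PU.1 and ETS strings share the letters GGAAGT but differ in the bases before them, so the same site cannot match both. Among the printed windows, that of DUSP10 held the PU.1 string, that within PPM1L the E2A string, those within PPM1L and of COL9A2 the EBF1 string, and those of PSPC1, ZNF675 and THAP4 none of the 7.

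**Figure D1:**
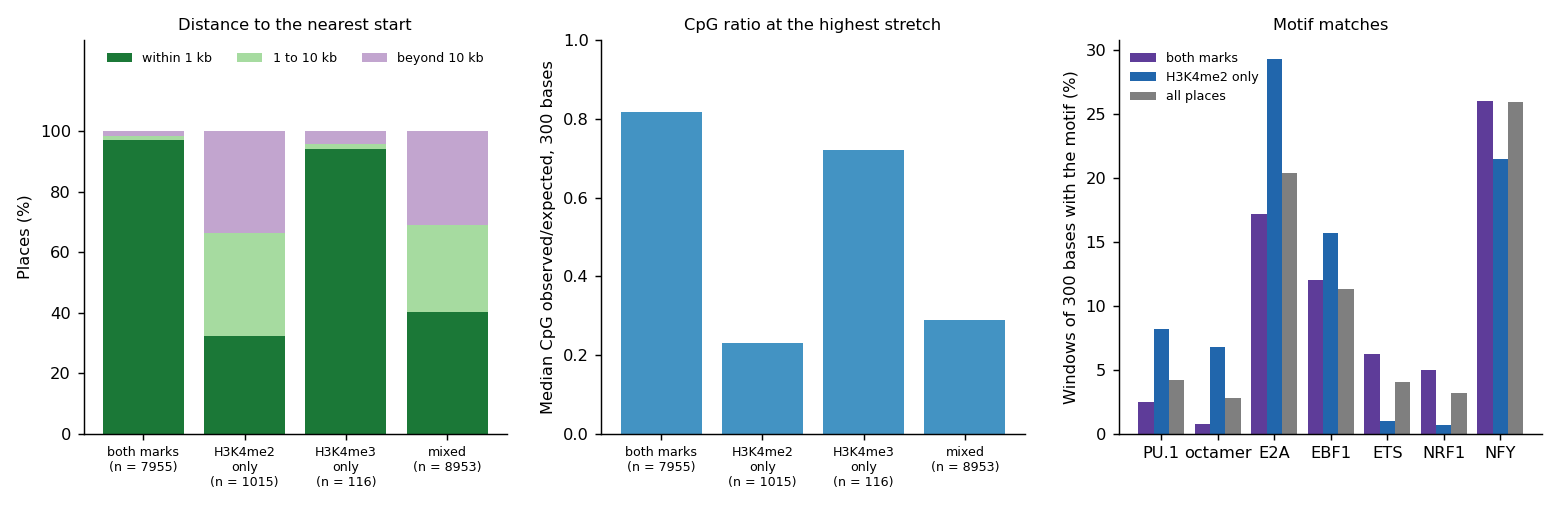
Left, share of places (percent) by distance to the nearest start for each class. Middle, median ratio of observed to expected CpG in 300 bases around the strongest stretch. Right, share of windows (percent) holding each motif string in places of both marks, H3K4me2-only places and all places. H3K4me2-only places lay within 1 kb of a start in 32.2% of cases, against 96.9% for both marks, and had a median CpG ratio of 0.231 against 0.819.

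Peak width did not separate the marks. Median widths were 1200, 1630 and 2640 bp for H3K4me2 and 1690, 2630 and 2500 bp for H3K4me3, which overlapped (means 1823 ± 739 and 2273 ± 509 bp, SD, n = 3 each, exact permutation p = 0.5). The spread between replicates of one mark was larger than the difference of the means. Bases called in at least 2 of 3 libraries covered 27.7 Mb for H3K4me2 and 26.7 Mb for H3K4me3, and the 19.9 Mb in common were 72.0% of the former and 74.7% of the latter. For single libraries, 54.6 to 94.0% of the H3K4me3 bases lay in called H3K4me2 bases of the 9 pairs, against 42.9 to 99.4% between 2 H3K4me2 libraries and 74.1 to 94.9% between 2 H3K4me3 libraries, so the shares between marks fell within the range seen within H3K4me2.

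Within the 7955 places of both marks the layout of the called bases was compared, using bases called in at least 2 of 3 libraries of a mark. H3K4me3 reached further on both sides in 48.3% of places and H3K4me2 in 11.3%, and in the other 40.4% each mark was further on one side or they were equal. The median called length was 2060 bp for H3K4me2 and 2540 bp for H3K4me3. In single libraries it was 1920, 1760 and 3120 bp for H3K4me2 and 2110, 2800 and 2670 bp for H3K4me3, which overlapped, with the longest calls in replicate 3 of H3K4me2 (2267 ± 743 against 2527 ± 367 bp, SD, n = 3 each, exact permutation p = 0.7). In 5571 places, 70.0%, at least 200 bp inside the H3K4me3 span had no H3K4me2 call. These bases were summed over the span, ends included, and need not be continuous. Since depth differed between the marks as well, the shares of places are given without a test. The lengths of the marks went together over places, with a Pearson r of 0.80 and a Spearman rho of 0.73 over 7955 places that share libraries.

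The strongest stretch of a peak lay on different sides of the start. For peaks within 2.5 kb of a protein-coding start, the highest stretch was downstream of the start in 36.2%, 38.5% and 44.6% of H3K4me2 peaks in replicates 1, 2 and 3. It was downstream in 55.0%, 70.4% and 71.4% of H3K4me3 peaks, so that no library of one mark reached those of the other. The median signed distance was -27, -22 and -10 bp for H3K4me2, thus upstream, and 4, 59 and 67 bp for H3K4me3. Replicate 1 of H3K4me3 was nearer to the start than the other 2 libraries of that mark. The median absolute distance overlapped, with 100, 99 and 124 bp for H3K4me2 and 68, 93 and 101 bp for H3K4me3 (108 ± 14.2 against 87.3 ± 17.2 bp, SD, n = 3 each, exact permutation p = 0.3). Between same-numbered libraries of the marks the strongest stretches of a place were a median of 100, 200 and 215 bp apart, and between libraries of one mark 20 to 100 bp.

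**Figure D2:**
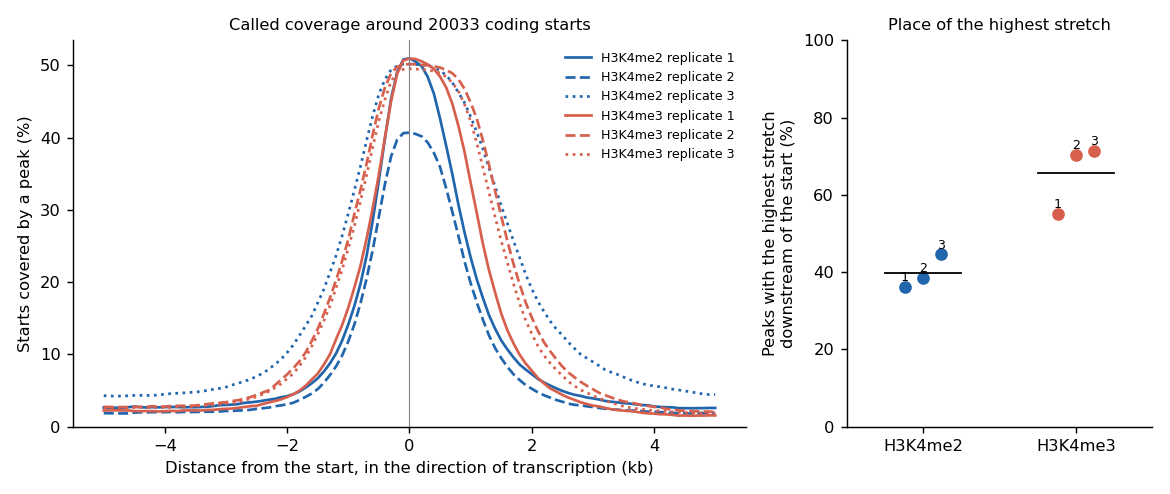
Left, percent of 20033 protein-coding starts covered by a called peak against distance from the start (kb, positive in the direction of transcription), 1 line per library. Right, percent of peaks whose strongest stretch lay downstream of the start, 1 numbered point per library with the mean as a bar. At the start 40.7 to 51.0% of starts were covered by H3K4me2 and 49.5 to 50.9% by H3K4me3, and the downstream share was 36.2 to 44.6% against 55.0 to 71.4%.

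Around 20033 protein-coding starts, 1 per gene, H3K4me2 peaks covered 51.0%, 40.7% and 50.2% of starts and H3K4me3 peaks 50.9%, 50.2% and 49.5%. The profile was wider downstream than upstream in every library, and its width at 0.5 of its height was 1500, 1600 and 2800 bp for H3K4me2 and 1800, 2600 and 2400 bp for H3K4me3 (exact permutation p = 0.7). By gene, 8666 of the 20033 (43.3%) had their strongest place within 1 kb of a start called for both marks, 131 (0.654%) for H3K4me2 only and 96 (0.479%) for H3K4me3 only. Another 2522 (12.6%) had a mixed place and 8618 (43.0%) had none.

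The balance of the marks was then tested in the places called for both. The summed total signal of the peaks in a place was taken as log2 and centred on the library's median over these 7955 places. A value of 0 in the difference, H3K4me2 minus H3K4me3, is therefore the median place and not equal amounts of the marks. By limma with Benjamini-Hochberg adjustment at 0.05, the balance was toward H3K4me2 in 3014 places, 37.9% of those tested, and toward H3K4me3 in 2591 places, 32.6%. The difference ranged from -2.47 to 5.18, with the 10th and 90th percentiles at -1.04 and 1.85 and a median SE of 0.16, so that the long tail was on the H3K4me2 side. A difference over 1 log2 unit was found in 1755 places toward H3K4me2 and 882 toward H3K4me3. Without centring, which removed a shift of -0.80 between the marks, the split was 927 against 3705 places, so a direction is given here only relative to the median place.

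Places away from starts were tipped toward H3K4me2. Of the 245 tested places beyond 1 kb of a start, 87.3% were called toward H3K4me2 and 3.67% toward H3K4me3, with a median difference of 1.91, against 35.1% and 34.2% and a median of -0.02 for the 7346 places at protein-coding starts. Without centring the 245 places still had 134 calls toward H3K4me2 and 20 toward H3K4me3. In single libraries the median log2 signal beyond 1 kb was 0.32, 0.19 and 0.19 above that within 1 kb for H3K4me2, and lay at -2.09, -1.83 and -1.80 relative to it for H3K4me3. The 364 places with only a lncRNA start within 1 kb had a median of 0.92. By CpG ratio over the whole place, the median difference fell from 1.81 below a ratio of 0.3 (367 places) to 0.26 between 0.3 and 0.6 and -0.24 between 0.6 and 0.9. Over all tested places the difference and the CpG ratio had a Pearson r of -0.39 and a Spearman rho of -0.35. The 1591 places with the shortest H3K4me3 calls had a median of 0.75 and the 1591 with the longest -0.14, a relation that shares the H3K4me3 calls with the difference itself.

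**Figure D3:**
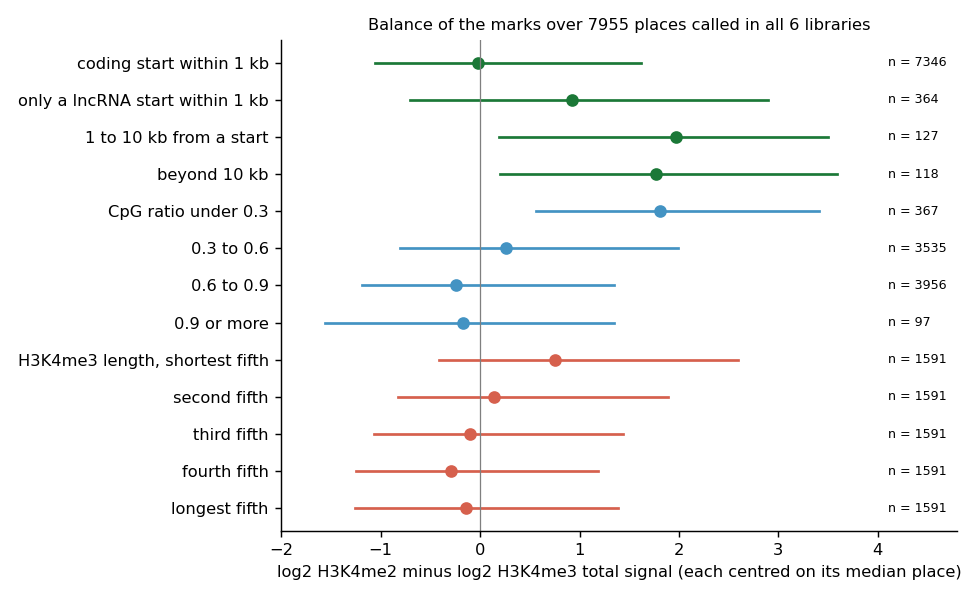
Difference of log2 total signal, H3K4me2 minus H3K4me3, each centred on its median place. Points are medians over the places of a stratum, lines run from the 10th to the 90th percentile of places, and n is the number of places. Places beyond 1 kb of a start and places with a CpG ratio under 0.3 lie to the right, with medians from 1.77 to 1.97.

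The 5 starts with the largest balance toward H3K4me2 were those of COL9A2, PCDHGC3, ARAP1, SREBF1 and NOL4L. At COL9A2 (chr1:40311931-40317780), which encodes a chain of collagen IX, the total signal was 2.56, 2.76 and 2.31 times the library's median place for H3K4me2 and 0.0362, 0.110 and 0.0859 times for H3K4me3. Both marks were called over it, but H3K4me2 over 5130 to 5810 bp and H3K4me3 over 1220 to 2870 bp. The difference was 5.18 ± 0.34 (SE, limma adjusted p = 2.8e-07). PCDHGC3, a clustered protocadherin, had 5.03 ± 0.21, and ARAP1, a regulator of small GTPases, had 4.77 ± 0.52. At SREBF1, which encodes a transcription factor of lipid synthesis, it was 4.65 ± 0.20 and at NOL4L 4.52 ± 0.22. The SREBF1 place (chr17:17818991-17826210) is at the start of an internal transcript in GENCODE. A start here is that of any transcript, so the other named places need not lie at the main start of their gene either. These 5 were chosen among called places whose groups were separated, so their separation is no result. Over all tested places 74.6% were separated.

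The 5 starts with the largest balance toward H3K4me3 were those of THAP4, SAFB2, BOP1, PPP4R3A and SSU72, and 3 of these places held a second coding start. THAP4 shares its place with ATG4B, an autophagy protease. There the signal was 0.665, 0.927 and 0.805 times the median place for H3K4me2 and 4.98, 3.87 and 4.38 times for H3K4me3, a difference of -2.47 ± 0.15 (SE, limma adjusted p = 2.0e-07). The paired genes SAFB2 and SAFB, nuclear matrix binding proteins, had -2.43 ± 0.18. BOP1, a ribosome assembly factor, and HSF1, the heat shock transcription factor, had -2.38 ± 0.25 at their common place. PPP4R3A, a subunit of protein phosphatase 4, had -2.29 ± 0.18 and SSU72, a phosphatase of RNA polymerase II, -2.28 ± 0.17. The mean signal per base pointed the same way at each, with differences of -2.09 to -1.89.

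Single-mark places were named by their signal. The 5 H3K4me2-only places of highest mean signal within 1 kb of a coding start were at CCL3L3, DUSP10, LRCH1, ILRUN and SMAD7. At DUSP10, a phosphatase of MAP kinases, the mean signal was 771, 471 and 302 RPKM over 490 to 810 bp, and at SMAD7, an inhibitor of TGF-beta signalling, it was 401, 420 and 205 RPKM over 1190 to 3190 bp. CCL3L3, a chemokine gene with near-identical copies, is uncertain because reads can map to several copies. In all 5 places no H3K4me3 library had a call. The DUSP10 place lay 845 bp from the nearest start and, like those of LRCH1 and ILRUN, within a coding gene. The calls describe these places and not other starts of the genes. The SMAD7 place (chr18:48926941-48930130) lay 52 bp from a start inside the gene, and the upstream SMAD7 start carried both marks. The 5 strongest beyond 10 kb of any start included places within PPM1L, MACC1 and ANO6 and, outside coding genes, a place nearest to HMGB1P1. The median mean signals of the 5, which were picked for them, were 521 to 725 RPKM. All 341 H3K4me2-only places beyond 10 kb had a median of 231 RPKM, against 277 RPKM for H3K4me2 in places of both marks. Within PPM1L it was 811, 513 and 725 RPKM over 1320 to 1440 bp.

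The 116 H3K4me3-only places were weak, with a median of 137 RPKM against 425 RPKM for H3K4me3 in places of both marks. The strongest were at the starts of PSPC1, C2orf49, ZNF675, MED4 and DHX40. At PSPC1, a protein of nuclear paraspeckles, the mean signal was 437, 531 and 482 RPKM, over 2440 to 2720 bp. MED4, a Mediator subunit, had 207, 339 and 335 RPKM. Of the 116 places 107 had an H3K4me2 peak in at least 1 of the 3 libraries of Raji cells treated with bryostatin, which were deeper (15.6 to 18.8 M mapped reads) than the untreated H3K4me2 libraries. Over all places this was found for 17432 of 18039.

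The longest calls lay over a 5S ribosomal RNA cluster and around genes such as PAX5 and CXXC5. The longest H3K4me3 place by median called length (chr1:228618851-228643420) held 11 annotated 5S rRNA genes, and since these are near-identical copies its signal is uncertain. It measured 17870, 20260 and 22990 bp for H3K4me3 and 18340, 14200 and 23310 bp for H3K4me2. At PAX5, the master regulator of B cell identity, the calls were 15140, 15590 and 16130 bp for H3K4me3 and 15120, 14620 and 16310 bp for H3K4me2. The others were MIDN with CIRBP, a place of several genes around TRPT1, and MOB3A with IZUMO4, with median H3K4me3 lengths of 15400 to 18990 bp. The 5 longest H3K4me2 calls held the 5S cluster, MIDN and CXXC5 (median 22440 bp, H3K4me3 11480 bp), DTX1, a regulator of Notch signalling (18040 and 9490 bp), and TFEB, a lysosomal transcription factor (17830 and 13450 bp). At CXXC5 and DTX1 the balance of total signal was toward H3K4me2 (1.28 ± 0.10 and 1.15 ± 0.11, limma adjusted p = 6.9e-07 and 3.5e-06), but the mean signal per base differed by -0.049 and -0.074, while the H3K4me2 calls were the longer ones in all same-numbered libraries. At TFEB the differences were 1.33 ± 0.08 in total and 0.47 per base. Without centring the calls at CXXC5, DTX1 and TFEB were lost.

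Gene lists were followed at their starts, each gene by its strongest place within 1 kb. Of the 26 genes of the B cell receptor and surface antigens, 21 had both marks in all libraries and could be tested. Of these 16 were called toward H3K4me2 and 2 toward H3K4me3, with a median of 0.97, against 35.1%, 34.2% and -0.02 over all places at coding starts. Without centring 4 and 3 were called and the median was 0.18. Of all 7346 places at coding starts, 690 and 3590 were then called, with a median of -0.82. FCER2, the low-affinity IgE receptor CD23, had 0.902, 0.688 and 1.49 times the median place for H3K4me2 and 0.0414, 0.236 and 0.115 times for H3K4me3, a difference of 3.23 ± 0.51 (SE, limma adjusted p = 0.00016). CD37, a tetraspanin of B cells, had 2.63 ± 0.24. At the other end CD40, the receptor for T cell help, had 1.11, 1.42 and 1.42 times for H3K4me2 and 2.13, 2.58 and 2.33 times for H3K4me3 (-0.84 ± 0.14), and CIITA, the master regulator of MHC class II, had -0.52 ± 0.15, a call lost with the maximum signal. The 5 genes left out were mixed. MS4A1 (CD20), CD74, FCRLA and BTK had H3K4me3 in 3 of 3 libraries and lacked H3K4me2 only in replicate 2. That H3K4me2 library had the fewest mapped reads (6.70 M). CD24 had H3K4me2 in 3 libraries and H3K4me3 in 1.

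Of 24 B lineage transcription factor genes 20 carried both marks in all libraries and were tested. Their median called lengths were 4775 bp for H3K4me2 and 5435 bp for H3K4me3. Over all tested places at coding starts these were 2020 and 2590 bp. The tested B cell receptor and surface antigen genes had 5320 and 4130 bp. Of the 20 factors 10 were called toward H3K4me2 and 4 toward H3K4me3, with a median of 0.31. Over all places at coding starts 35.1% and 34.2% were called and the median was -0.02. Quantile normalization gave 8 and 6 with a median of -0.05, against -0.15 over all places at coding starts. Without centring it was 0 and 7 with -0.48, against 690 and 3590 of 7346 with -0.82. The list's median lay above that of all coding starts in these settings, but its sign changed, so no direction is given for the list. SPIB, a partner of PU.1, had 1.51 ± 0.16, and POU2AF1, the coactivator of the octamer factors, 1.01 ± 0.19, and both calls were lost without centring. XBP1, the plasma cell factor, had 0.706, 0.791 and 0.863 times the median place for H3K4me2 and 3.16, 2.09 and 2.40 times for H3K4me3 (-1.68 ± 0.16, limma adjusted p = 4.4e-06). Its H3K4me3 calls were 3450 to 4360 bp long and its H3K4me2 calls 1160 to 3060 bp. FOXO1 had -1.17 ± 0.10.

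Germinal centre genes were called in both directions. Of 14 genes 13 were tested, with 6 toward H3K4me2 and 3 toward H3K4me3 and a median of -0.18, against 35.1%, 34.2% and -0.02 over all places at coding starts. Without centring the counts were 2 and 7, with a median of -0.97. All 7346 places at coding starts then gave 690 and 3590 calls and a median of -0.82. RGS13, a regulator of chemokine receptor signalling, had 0.576, 0.582 and 1.09 times the median place for H3K4me2 and 0.10, 0.257 and 0.173 times for H3K4me3. The difference was 2.12 ± 0.35 (SE, limma adjusted p = 0.00021), and the groups did not overlap. MYBL1, a transcription factor of germinal centre cells, had -1.11 ± 0.11 and CCDC88A -0.91 ± 0.15, a call lost with the mean per base. STAP1 had no place within 1 kb of a start.

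Ribosomal protein genes lay on the H3K4me3 side. Of 86 genes 84 had a place within 1 kb of a start, and all 84 had H3K4me3 in 3 of 3 libraries. H3K4me2 was called in all 3 libraries for 35, in 2 for 36, in 1 for 8 and in none for 5, RPL17, RPL24, RPL38 and RPS4X among them. Over all places with H3K4me3 in 3 of 3 libraries, these counts were 7955, 1455, 269 and 116 places. Of the 35 tested 27 were called toward H3K4me3 and 3 toward H3K4me2, with a median of -0.82. Over all places at coding starts 34.2% and 35.1% were called and the median was -0.02. With quantile normalization the median was -1.09, against -0.15 over all places at coding starts, and for the mean per base -0.37 against -0.06, where 15 of the 35 were called toward H3K4me3 and 2 toward H3K4me2. Leaving out the centring shifts every place by -0.80 and gave -1.62 against -0.82. At RPL7A the signal was 0.209, 0.738 and 0.896 times the median place for H3K4me2 and 2.09, 2.33 and 2.33 times for H3K4me3 (-2.12 ± 0.41, limma adjusted p = 0.00072), and RPS21 had -1.95 ± 0.17. RPL23A (0.50 ± 0.14) and RPL28 (0.37 ± 0.10) were at the other end, and both turned negative without centring.

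Of 18 writers and erasers of this methylation 17 were tested, with 5 toward H3K4me2, 7 toward H3K4me3 and a median of -0.25, against 35.1%, 34.2% and -0.02 over all places at coding starts. Without centring the counts were 0 and 11, with a median of -1.05. All 7346 places at coding starts then gave 690 and 3590 calls and a median of -0.82. With the maximum signal the list had 3 and 2. KMT2B, a methyltransferase, had 0.95 ± 0.12 and RBBP5, a core subunit of the complexes, 0.80 ± 0.18, and both calls were lost without centring. KDM1A, the demethylase LSD1, had -1.34 ± 0.15 and WDR82, the subunit that ties SETD1 to RNA polymerase II, -1.33 ± 0.27, which did not pass with the maximum signal. Of 24 natural killer ligand and adhesion genes followed by the study 13 were tested, with 4 called toward H3K4me2, the other 9 in neither direction and a median of 0.23. The share toward H3K4me2 was thus near the 35.1% of all places at coding starts. No call was toward H3K4me3, against 34.2% of those places, whose median was -0.02. The counts without centring were 2 toward H3K4me2 and 3 toward H3K4me3, with a median of -0.57. That median was -0.82 over all places at coding starts. With the mean per base the counts were 5 and 1. ULBP2 and MICA, ligands of NKG2D, had 2.45 ± 0.34 and 1.79 ± 0.12. At MICA the signal was 2.13, 2.28 and 2.27 times the median place for H3K4me2 and 0.636, 0.652 and 0.645 times for H3K4me3. BAG6 (-0.26 ± 0.16) and FAS (-0.23 ± 0.13) did not pass, but did so without centring. ULBP1 and PVR had no place.

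Most listed genes of other lineages had no place within 1 kb of a start, which held for 43.0% of all protein-coding genes. Of 20 T and natural killer cell markers 17 had no place within 1 kb of a start, among them CD3E, CD8A and GATA3. LCK, a T cell kinase, had H3K4me2 only, at 1090 to 6320 bp, and TCF7 and NKG7 had H3K4me2 in 3 libraries and H3K4me3 in 1. Of 17 myeloid and erythroid markers 14 had no place, and the 3 with one (CEBPE, ITGAM, CD33) had H3K4me2 peaks and no H3K4me3 peak. Of 41 developmental transcription factor genes 37 had no place. Of 12 precursor B cell genes 8 had no place, DNTT and CD34 among them, and SOX4, the only one tested, had -0.11 ± 0.16. RAG1 had H3K4me3 in 3 libraries and H3K4me2 in 2, and IL7R had each mark in 2. IGLL1 had H3K4me2 in 2 libraries and no H3K4me3.

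**Figure D4:**
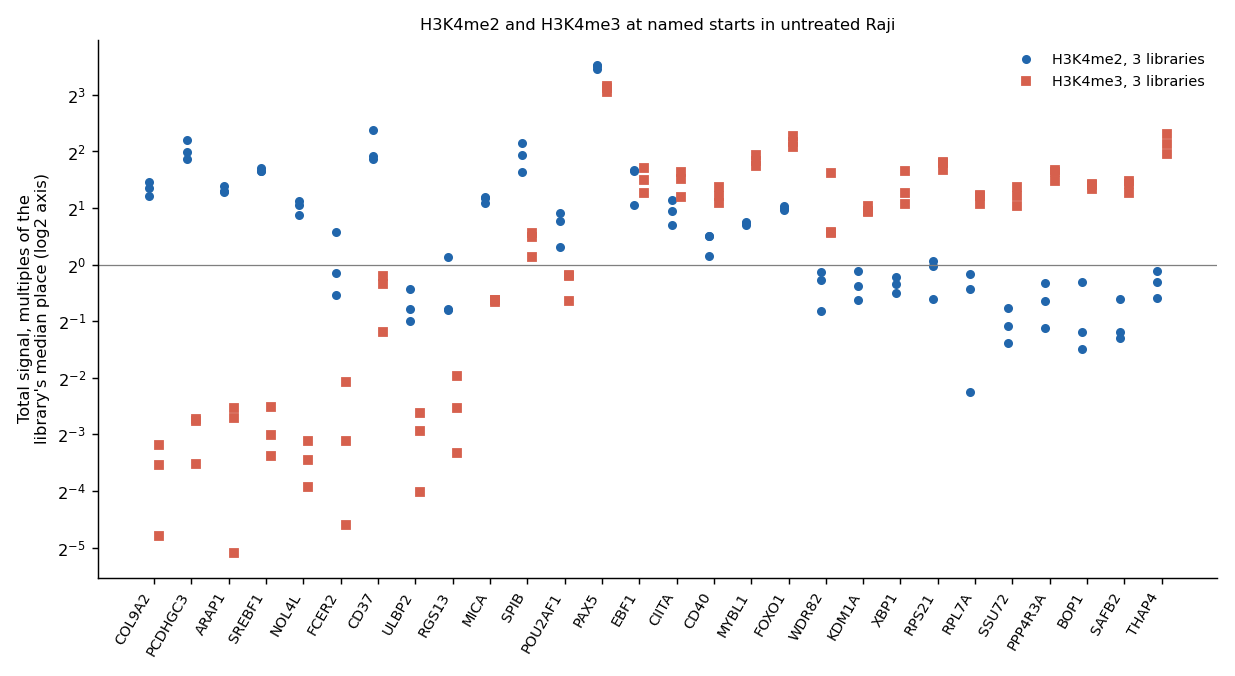
Total signal at named starts as multiples of the library's median place (log2 axis), with 3 H3K4me2 libraries as blue circles and 3 H3K4me3 libraries as red squares, ordered by the difference. COL9A2 at the left had 2.31 to 2.76 for H3K4me2 against 0.0362 to 0.110 for H3K4me3, and THAP4 at the right had 0.665 to 0.927 against 3.87 to 4.98.

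The balance in Raji was compared with that of REH, a B cell precursor leukemia line, untreated and profiled with 3 libraries per mark. Peaks of the 12 libraries were merged together and 5910 places were called in all of them. By the limma interaction of line and mark, the balance was more toward H3K4me2 in Raji at 1079 places (18.3% of those tested) and more toward H3K4me3 in Raji at 662 (11.2%). With the mean signal per base these counts were 448 and 361. Mapped reads in REH were 13.7 to 18.8 M for H3K4me2 and 10.2 to 27.9 M for H3K4me3, which overlapped, unlike in Raji. A difference in balance due to depth and one due to the line cannot be told apart. Over these places the differences of the lines had a Pearson r of 0.78, a description across places.

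The largest interactions toward H3K4me2 in Raji were at MAML3, ZMIZ1, CPD, IFFO2 and VWCE. At MAML3, a coactivator of Notch signalling, the H3K4me3 signal was 0.0561, 0.0893 and 0.0955 times the median place in Raji and 2.44, 2.30 and 2.23 times in REH. The H3K4me2 signal there was 1.17, 1.13 and 1.76 times in Raji and 2.52, 2.53 and 2.53 times in REH, so that, relative to the median place, both marks were lower in Raji and H3K4me3 differed the more. The largest toward H3K4me3 in Raji were at CD70, INTS1, P2RX5, TLE3 and SMAD7. CD70, a ligand of the tumor necrosis factor family on activated B cells, had 1.88, 1.49 and 1.49 times for H3K4me3 in Raji and 0.474, 0.467 and 0.288 times in REH, while H3K4me2 was 1.22 to 1.76 times in Raji and 2.19 to 2.51 times in REH. Among the listed genes, ULBP2 (1.69 ± 0.37) and MICA (0.99 ± 0.14) were more toward H3K4me2 in Raji, and FAS (-0.997 ± 0.19) more toward H3K4me3. SOX4 had an interaction of 1.93 ± 0.22, with a balance, centred on the places of this comparison, of 0.12 in Raji and -1.81 in REH.

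The classes were looked up in libraries that did not define them. In Raji cells treated with bryostatin, a protein kinase C activator, 94.5% of the places called for both marks fell in that class again and 88.8% of the H3K4me2-only places did. Of the 1015 H3K4me2-only places 965 had no H3K4me3 peak in any treated library. Over all places this held for 7211 of 18039. It also held for 2959 of the 3001 places with H3K4me2 in 1 untreated library and no H3K4me3. That absence was thus not particular to places called in all 3 H3K4me2 libraries. An H3K4me2 peak in all 3 treated libraries was found for 950 of the 1015 places. The counts were 11770 of 18039 over all places and 129 of the 3001. Only 3 of the 116 H3K4me3-only places recurred as such. In REH 4.56% of the places called for both marks had no peak of either mark in any untreated library, against 48.4% of the H3K4me2-only places and 59.2% of those beyond 10 kb. The share was 17.2% for H3K4me3-only places, 58.0% for mixed places and 33.6% over all places.

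H3K27me3, the Polycomb mark, was read in 3 untreated Raji libraries that went against each other. They had 819, 24143 and 73265 peaks, and a peak overlapped 0.350%, 90.8% and 8.75% of the places called for both marks within 1 kb of a start. For H3K4me2-only places within 1 kb the shares were 6.12%, 22.9% and 33.6%. Replicates 1 and 3 thus had higher shares at H3K4me2-only starts and replicate 2 at starts with both marks, so no direction is given.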

How the data were processed

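Per the methods, the authors trimmed the Cut&Tag reads with Trim Galore, mapped them to hg38 with Bowtie2 and used SEACR for peaks, here 1 stringent set for every library without pooling. Tool versions are not given in the sources used here, and bcl2fastq and DESeq2 are also named in the submitters' processing notes. The deposited peak files hold the total and the highest signal, which is coverage normalized by the authors as RPKM in 10 bp bins. Such signal corrects for mapped reads but not for the share of reads in peaks, so a weak mark in a shallow library can miss the threshold. No read counts were used, so DESeq2, the authors' test, was replaced by limma on log2 signal. Mapped reads per library were computed from the smallest step of the RPKM values, and the largest deviation of any library from whole steps was 0.0149 of a step.

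Peaks on chromosomes 1 to 22, X and Y were merged where they overlapped by at least 1 bp. Starts were those of all protein-coding and lncRNA transcripts of GENCODE release 44, and sequences were read from hg38. Differences between marks used limma 3.58.1 (R 4.3.3, trended variance, Benjamini-Hochberg, adjusted p of 0.05) on centred log2 total signal, in places called in all 6 libraries, or all 12 for the interaction with REH. Library values were compared by two-sided exact permutation tests. Python 3.11.15, numpy 2.4.6, scipy 1.17.1, pandas 2.3.3 and matplotlib 3.10.9 were used. The statistics were checked on simulated data.

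Named by rule were the 5 places at each end of the balance at coding starts, taken from called places with separated groups. Also named were the 5 strongest of each single-mark class (H3K4me2 both near coding starts and beyond 10 kb) and the 5 longest of each mark. The rule further took the 5 largest interactions of each sign, and genes at the ends of each list or without a place. The members, lists and rules were chosen with earlier results of these data known. Alternatives changed the signal measure, scaling, filters, overlap, windows, number of peaks, block and libraries. The remaining libraries of the series were not used here, and a few genes and sequences that the rule names are not reported here. Same-numbered libraries of the marks deviated from their group means with correlations of 0.32, -0.08 and 0.16, so the numbers were not taken to pair the samples.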

Additional observations from a re-analysis of the deposited data

Results flagged for a closer look

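The balance of the marks differed between Raji and REH by the limma interaction at 1079 places toward H3K4me2 in Raji and at 662 toward H3K4me3 in Raji. In 619 of these 1741 calls the balance had opposite signs in the lines. The gap in depth between the marks also differed between the lines and cannot be told apart from the line. The largest log2 interactions were 3.96 at MAML3, 3.64 at ZMIZ1, 3.15 at CPD, 3.12 at IFFO2 and 3.06 at VWCE, and -2.68 at CD70, -2.67 at INTS1, -2.50 at P2RX5, -2.50 at TLE3 and -2.40 at SMAD7.

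The untreated Raji peak files also held peaks on sequences other than chromosomes 1 to 22, X and Y, which no comparison used. There were 86, 33 and 59 such peaks in the H3K4me2 libraries and 46, 22 and 16 in the H3K4me3 libraries.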

How the results depend on the processing

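Without centring, 927 places were called toward H3K4me2 and 3705 toward H3K4me3. In the upper 0.5 of places by signal, where fewer places were tested, the counts were 1119 and 1704. Leaving out each library in turn gave 2814 to 3178 and 2332 to 3085. For the interaction with REH, the mean signal per base gave 448 and 361 places and the maximum signal 586 and 364, and leaving out each library gave 880 to 1222 and 515 to 807. The fit with a replicate block gave 3087 and 2682 places, and 1261 and 837 for the interaction, all within 1.5 times the counts without it. An alternative chosen after seeing the data, without replicate 1 of both marks, gave 2876 and 2376 places, and without Raji replicate 1 of both marks the interaction gave 1077 and 678.

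The classes changed with the peaks and libraries used. With at least 2 of 3 libraries required, 95.8% of places of both marks lay within 1 kb of a start, and 3453 places had H3K4me2 only, 23.6% of them within 1 kb. In the upper 0.5 of peaks, 3109 places had both marks (98.9% within 1 kb), 74.1% of H3K4me2-only places lay within 1 kb, and 247 places had H3K4me3 only (100% within 1 kb). With equal numbers of peaks, the shares within 1 kb were 97.3% for both and 37.8% for H3K4me2 only, and 1205 places had H3K4me3 only. Leaving out each library gave 7955 to 9409 places of both marks (96.3 to 96.9% within 1 kb), 1015 to 3442 of H3K4me2 only (23.6 to 37.8%) and 116 to 350 of H3K4me3 only (91.3 to 94.1%). The difference in the share of peaks within 1 kb, H3K4me2 minus H3K4me3, kept its direction in every alternative run (-24.3 to -11.7 percentage points), but 3 against 3 libraries allow no p under 0.1, so this says nothing of a threshold.

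The log2 difference turned negative without centring at MIDN (-0.033), TRPT1 (-0.34), PAX5 (-0.41), MOB3A (-0.43), RPL28 (-0.43) and RPL23A (-0.29). It did so with quantile normalization at TRPT1 (-0.092), PAX5 (-0.22) and MOB3A (-0.12), with the maximum signal at TRPT1 (-0.19) and CXXC5 (-0.46), and with the mean per base at CXXC5 (-0.049) and DTX1 (-0.074). Over named places and alternatives, 580 values kept direction and call, 23 lost the call and 3 gained it, while all 160 values of named interactions kept both. Named places were not recomputed with the 200 bp overlap. Where no value above shows it, the cause was not tested. H3K4me2 depth, 6.70 to 13.9 M reads, limits what its absence at a place can show.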
